A study of Mus musculus with 8 samples.

Results

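The inflammatory tissue chemokine receptors described here are Ccr2, Ccr3, Ccr4, Ccr6, Ccr8, Cxcr3, Cxcr6 and Cx3cr1. They were chosen by gene name, and all probe sets assigned to 1 of these 8 symbols by the platform annotation were taken, giving 13 probe sets of the 45037 tested, for 8 of 18193 measured genes. Each of the 8 arrays held RNA of sorted mouse CD4+ T cells. Foxp3, on the X chromosome, encodes the lineage factor of regulatory T cells, and in all mice its allele was joined to enhanced green fluorescent protein (EGFP), and cells were sorted by EGFP fluorescence. The allele was a mutant named delta or wild type (WT), in hemizygous males where the design text speaks of sorted positive cells. The groups were delta EGFP-positive (n = 3), WT EGFP-positive (n = 3), delta EGFP-negative (n = 1) and WT EGFP-negative (n = 1). The sources used here give no age, organ, strain or description of the delta change.

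Chemokine receptors are multipass membrane proteins that signal through inhibitory G proteins and steer leukocytes along gradients of chemokines. Receptors of this set are typically scarce on naive T cells and are gained by effector, memory and regulatory T cells that enter inflamed skin, gut, lung or liver. Cxcr3 and Cxcr6 are known from Th1 and cytotoxic cells, Ccr3, Ccr4 and Ccr8 from Th2 cells, Ccr6 from Th17 cells, and Ccr4, Ccr6 and Ccr8 also from regulatory T cells. Ccr2 and Cx3cr1 are best known from monocytes.

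Values below are log2 of the deposited probe set intensity, and a gene with several probe sets is described by its brightest set on average unless another is named. Median intensity lay between 53.3 and 54.8 on the 8 arrays, and precision is limited by how few arrays there are. Low values carry no detection call here, so they are placed by their percentile among the probe sets of an array, and a fold is given only where both group means exceeded 5.75, the median over probe sets. Differences were tested with limma, with p-values adjusted over all probe sets and a threshold of 0.05. No source used here says that arrays of a group came from separate mice, so a p-value here reflects only array-to-array spread, which may be technical. In sorted bulk cells, fewer cells that express a receptor and less RNA per cell cannot be told apart.

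The reading of Foxp3 itself bears on the labels. Its probe set stood at 11.1, 11.51 and 11.21 in the delta EGFP-positive arrays, against 4.75, 4.86 and 4.64 in the WT EGFP-positive arrays, with 6.14 in the delta EGFP-negative array and 4.52 in the WT EGFP-negative array. The WT EGFP-positive arrays thus read low, against their label, and where this probe set lies relative to the altered sequence is unknown here. Groups are named as labelled, and each direction between alleles below rests on the labels. T cell genes were high throughout, Cd3e between 12.04 and 12.81 and Cd4 between 11.07 and 11.42 over the 8 arrays.

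The comparison of the EGFP-positive groups asks how cells marked by the delta allele differ from those marked by the WT allele. Of the 8 receptors, 3 were higher in the delta arrays (Cxcr6, Ccr8 and Cxcr3), 2 were lower (Ccr6 and Ccr3), and 3 did not pass (Ccr2, Ccr4 and Cx3cr1). Of all genes, 10.4% passed as higher and 6.02% as lower, 16.5% in either direction. The median difference of the 8 receptors was 0.05, against 0.02 for all genes. The EGFP-positive arrays of the alleles did not overlap for 6 of the 8 receptors, a pattern found in 34.2% of all genes. The count passing fell to 3, losing Ccr8 and Cxcr3, without delta replicate 1, without delta replicate 2 or without WT replicate 1. With any 1 array left out it ran from 3 to 5. Without WT replicate 2 and delta replicate 3 together it was again 5.

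**Figure D1:**
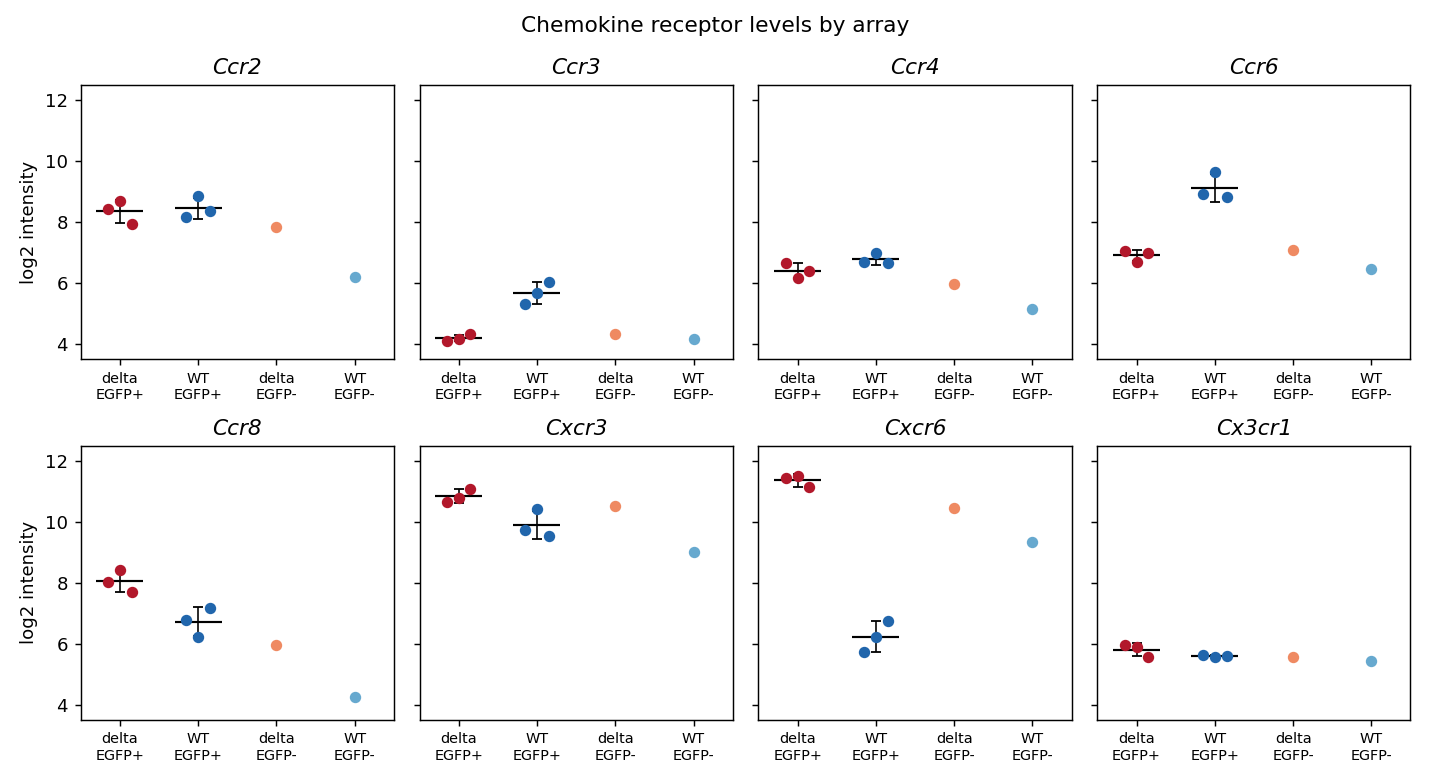
Log2 intensity of the main probe set of each receptor on each array, 1 panel per gene, with groups along the horizontal axis. Points are arrays, and bars and whiskers give the mean and SD of the EGFP-positive groups (n = 3). Cxcr6 is lowest in the WT EGFP-positive arrays, where Ccr6 and Ccr3 are highest.

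Promoter sequences of the 5 receptors that passed are shown because these genes differed in opposite directions on the same arrays. They are the 250 bases before an annotated start in RefSeq (GRCm38.p6), 5′ to 3′ on the gene's strand, and all 8 receptors had an entry. Capitals mark matches on either strand to 5 motifs, which were picked with the results known and whose letters do not overlap one another in these windows. The forkhead motif was searched as TAAACA and the T-box motif as AGGTGT. The letters for the GATA family were AGATAA, and those for RUNX factors were TGTGGT. For AP-1 the search used TGANTCA. Cxcr6 is from chr9:123806227-123806476 (+), Ccr8 from chr9:120091883-120092132 (+), Cxcr3 from chrX:101734148-101734397 (-), Ccr6 from the more upstream of its listed starts at chr17:8235793-8236042 (+) and Ccr3 from chr9:124021721-124021970 (+).
Cxcr6: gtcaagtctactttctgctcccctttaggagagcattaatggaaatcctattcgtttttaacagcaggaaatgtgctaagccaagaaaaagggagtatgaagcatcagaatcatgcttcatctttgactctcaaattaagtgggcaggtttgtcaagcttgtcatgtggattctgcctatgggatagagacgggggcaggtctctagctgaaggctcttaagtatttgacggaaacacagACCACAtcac
Ccr8: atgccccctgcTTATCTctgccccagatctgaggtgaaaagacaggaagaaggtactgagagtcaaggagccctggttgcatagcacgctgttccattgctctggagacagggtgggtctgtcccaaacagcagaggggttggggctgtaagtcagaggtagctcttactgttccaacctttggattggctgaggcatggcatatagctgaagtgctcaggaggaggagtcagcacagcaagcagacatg
Cxcr3: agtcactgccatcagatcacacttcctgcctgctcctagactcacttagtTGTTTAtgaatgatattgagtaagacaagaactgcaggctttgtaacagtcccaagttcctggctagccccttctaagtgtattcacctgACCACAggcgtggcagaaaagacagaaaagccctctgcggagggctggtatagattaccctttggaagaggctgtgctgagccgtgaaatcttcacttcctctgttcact
Ccr6: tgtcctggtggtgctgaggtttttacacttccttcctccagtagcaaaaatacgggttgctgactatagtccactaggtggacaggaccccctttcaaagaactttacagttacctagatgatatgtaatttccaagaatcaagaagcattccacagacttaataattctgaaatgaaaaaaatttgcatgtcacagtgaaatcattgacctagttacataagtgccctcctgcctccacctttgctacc
Ccr3: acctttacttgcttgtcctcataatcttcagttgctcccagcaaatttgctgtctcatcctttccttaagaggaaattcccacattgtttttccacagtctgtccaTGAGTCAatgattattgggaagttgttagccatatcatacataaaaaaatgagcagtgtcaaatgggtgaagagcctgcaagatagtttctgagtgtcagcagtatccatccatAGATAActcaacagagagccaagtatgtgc

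The Cxcr6 window held a RUNX match close to its start, the Cxcr3 window a forkhead and a RUNX match, the Ccr8 window a GATA match and the Ccr3 window a GATA and an AP-1 match. The Ccr6 window shown held none of these letters, while the window at its other listed start, not shown, held a GATA match. Among all 32851 windows of the same length, 12% held the forkhead letters, 11.8% the T-box letters, 9.99% the GATA letters, 6.75% the AP-1 letters and 14% the RUNX letters.

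Cxcr6, the receptor for the membrane-bound chemokine Cxcl16, differed most of the 8. It stood at 11.45, 11.51 and 11.13 in the delta EGFP-positive arrays, against 5.71, 6.23 and 6.75 in WT EGFP-positive arrays. Every delta array lay far above every WT array, and Cxcr6 ranked at percentiles 97 to 97.9 of the probe sets in the delta arrays. Cxcr6 was 35.1-fold higher in the delta arrays (difference 5.13, SE 0.25, 95% interval 4.55 to 5.71, limma adjusted p = 6.4e-05). Its other probe set, on a lower part of the scale, stood at 9.98, 10.2 and 9.21 in the delta arrays and at 4.46, 4.44 and 4.32 in the WT arrays. That set differed by 5.39 (SE 0.24, limma adjusted p = 5.27e-05), so both sets gave the same direction.

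Cxcr3, the receptor for the interferon-induced chemokines Cxcl9, Cxcl10 and Cxcl11, was high in every group. Its levels were 10.66, 10.79 and 11.09 in the delta EGFP-positive arrays and 9.72, 10.41 and 9.53 in the WT EGFP-positive arrays. The groups did not overlap, and WT replicate 2 came closest to the delta arrays. The difference was 0.96 (1.95-fold, SE 0.23, limma adjusted p = 0.034). This call was lost without any EGFP-positive array other than WT replicate 2, with adjusted p up to 0.12, and its adjusted p ran from 0.0023 to 0.12 over all alternatives.

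Ccr8, the receptor for Ccl1, which is known from Th2 cells and tissue regulatory T cells, also was higher. It stood at 8.02, 8.41 and 7.7 in the delta EGFP-positive arrays, against 6.77, 6.23 and 7.18 in WT EGFP-positive arrays. No WT array reached a delta array, the nearest pair lying in delta replicate 3 and WT replicate 3. Ccr8 was 2.49-fold higher (difference 1.32, SE 0.27, limma adjusted p = 0.0161). The adjusted p was 0.063 without delta replicate 1, 0.059 without delta replicate 2 and 0.057 without WT replicate 1, within 0.0047 to 0.063 over the alternatives.

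Array numbers in the sample titles fall into 3 runs, each holding an EGFP-positive array of either allele, and the labels do not say what the runs are. Both EGFP-negative arrays fall in the first run. Comparisons with them, described below, thus set positive arrays of 3 runs against a negative array of 1. Within the runs Ccr8 differed by 1.25, 2.18 and 0.52 between the delta and the WT array, and Cxcr3 by 0.94, 0.38 and 1.56. With the runs as a term in the fit neither receptor passed, Ccr8 at an adjusted p of 0.06 and Cxcr3 at 0.063. In the first run alone, WT EGFP-positive minus WT EGFP-negative was 2.45 for Ccr6, 2.53 for Ccr8 and -3.63 for Cxcr6. The delta pair of that run gave -0.03, 2.05 and 0.99.

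Ccr6, the receptor for Ccl20, which draws cells to mucosal surfaces, was the receptor with the largest difference downward. It stood at 7.05, 6.68 and 6.97 in the delta EGFP-positive arrays, against 8.91, 9.63 and 8.81 in WT EGFP-positive arrays. The gap between the groups was wider than the range of either, and WT replicate 2 was the highest array. Ccr6 was 4.64-fold lower in the delta arrays (difference -2.21, SE 0.22, 95% interval -2.74 to -1.69, limma adjusted p = 0.000858).

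Ccr3, the receptor for the eotaxins Ccl11 and Ccl24, is best known from eosinophils. Its level was 4.1, 4.16 and 4.31 in the delta EGFP-positive arrays, between percentiles 11.2 and 16.3, and 5.31, 5.66 and 6.03 in the WT EGFP-positive arrays, between percentiles 41.3 and 54.3. The groups did not overlap, but neither level was high, so no fold is given. The difference was -1.48 (SE 0.18, limma adjusted p = 0.00211). Eosinophil, basophil and mast cell genes gave 0 calls of 9 in limma. An unadjusted p under 0.05 was found for 1 of the 9 and for 5266 of all 18193 genes. Their summed intensity was 256 to 410 in the delta EGFP-positive arrays and 222 to 294 in the WT EGFP-positive arrays.

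Ccr4, the receptor for Ccl17 and Ccl22, stood at 6.64, 6.16 and 6.4 in the delta EGFP-positive arrays, against 6.68, 6.98 and 6.66 in WT EGFP-positive arrays. The groups were separated by less than their own spread, and the difference of -0.37 did not pass (95% interval -0.74 to -0.01, limma adjusted p = 0.194). Ccr2, the receptor for the monocyte chemokine Ccl2, stood at 8.41, 8.7 and 7.95 in the delta arrays and at 8.18, 8.84 and 8.35 in the WT arrays. These overlapped throughout (difference -0.1, 95% interval -0.64 to 0.44, limma adjusted p = 0.861), and the other 3 Ccr2 probe sets differed by -0.22 to 0.01.

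Cx3cr1, the receptor for the membrane-bound chemokine Cx3cl1, stood at 5.96, 5.88 and 5.57 in the delta EGFP-positive arrays, against 5.63, 5.55 and 5.59 in WT EGFP-positive arrays, close to the median of all probe sets. Its difference of 0.21 did not pass (95% interval -0.09 to 0.51, limma adjusted p = 0.381), nor did that of its other probe set, 0.34 (limma adjusted p = 0.113).

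**Figure D2:**
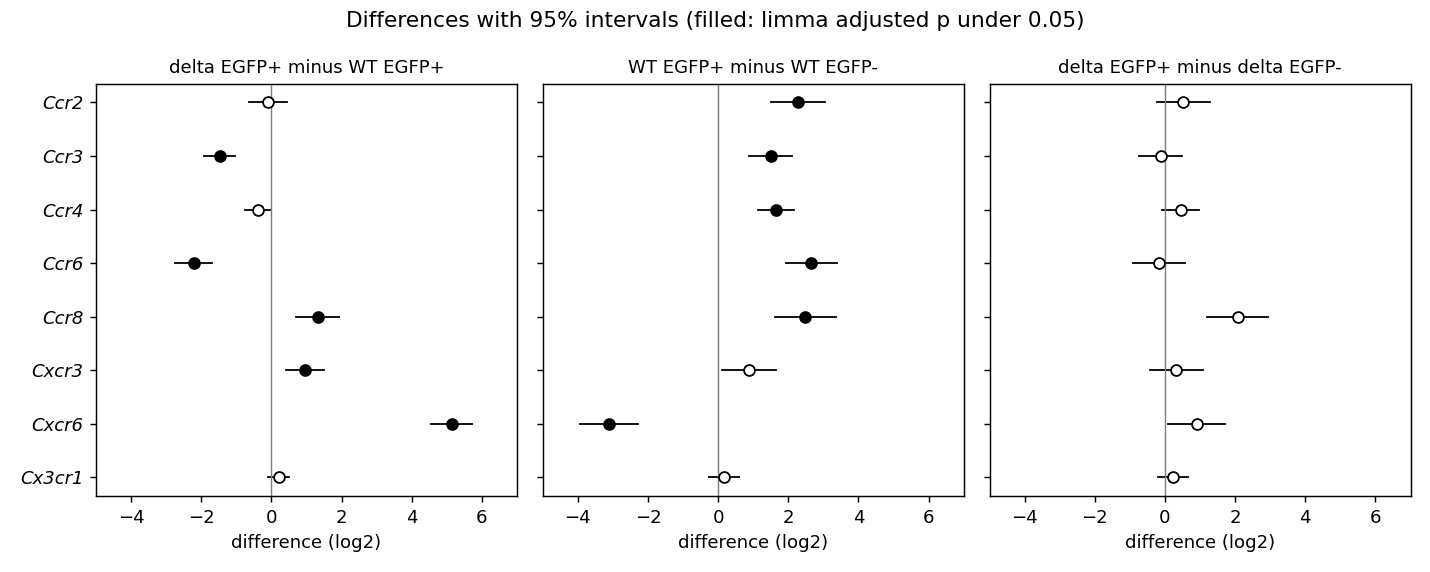
Differences of the main probe sets on the log2 scale with 95% intervals from limma, for the 3 tested pairs of groups. Filled points passed an adjusted p of 0.05. Cxcr6 lies at 5.13 in the left panel and at -3.11 in the middle panel, and no receptor passed in the right panel.

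The comparison of WT EGFP-positive with WT EGFP-negative cells sets the labelled WT regulatory cells against the remaining CD4+ cells. Of the 8 receptors, 5 were higher in the EGFP-positive arrays (Ccr6, Ccr8, Ccr2, Ccr4 and Ccr3), Cxcr6 was lower, and Cxcr3 and Cx3cr1 did not pass. The share of all genes that passed was 1.02% as higher and 0.478% as lower. The median difference of the 8 receptors was 1.57, against -0.02 for all genes. The lone EGFP-negative array is assumed to vary as much as replicated arrays do. The count of receptors passing, 6, fell to 3 without delta EGFP-positive replicate 1, to 2 without WT EGFP-positive replicate 3, and to 0 when only the WT arrays were fitted.

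Ccr6 read 8.91, 9.63 and 8.81 in WT EGFP-positive arrays, against 6.46 in the WT EGFP-negative array (6.31-fold, difference 2.66, SE 0.32, limma adjusted p = 0.00993). The receptor Ccr8 read 6.77, 6.23 and 7.18 in WT EGFP-positive arrays, against 4.24 in the WT EGFP-negative array, where it ranked at percentile 15.1 (difference 2.48, SE 0.38, limma adjusted p = 0.0264). For both, each positive array lay well above the negative array.

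Ccr2 read 8.18, 8.84 and 8.35 in WT EGFP-positive arrays, against 6.18 in the WT EGFP-negative array (4.85-fold, difference 2.28, SE 0.33, limma adjusted p = 0.0215). Its other probe sets pointed the same way without passing: they differed by 1.8 (adjusted p = 0.158), 0.57 (0.455) and 0.58 (0.793), the limma values. The mean of the 4 Ccr2 probe sets differed by 1.31 (limma adjusted p = 0.17). Cybb, a phagocyte oxidase gene, was the sole call among 10 monocyte and macrophage genes (difference 1.89, limma adjusted p = 0.0329), a call lost under 8 of 14 alternatives with an adjusted p of 0.021 to 0.23. The summed intensity of that list was 1021, 815 and 1981 in WT EGFP-positive arrays and 619 in the WT EGFP-negative array, and its part in the Ccr2 difference was not tested.

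Ccr4 averaged 6.77 ± 0.18 (SD, n = 3) in the WT EGFP-positive arrays and stood at 5.13 in the WT EGFP-negative array (difference 1.65, SE 0.22, limma adjusted p = 0.017). Ccr3 averaged 5.67 ± 0.36 (SD, n = 3) in the WT EGFP-positive arrays and stood at 4.17 in the WT EGFP-negative array (difference 1.5, SE 0.26, limma adjusted p = 0.0465). The Ccr3 call was lost under 8 of 13 alternatives, with an adjusted p of 0.025 to 0.23. Of 14 alternatives, 6 ended the call of Ccr2 (adjusted p 0.0017 to 0.17), 6 that of Ccr8 (0.0013 to 0.22), 5 that of Ccr4 (0.01 to 0.14) and 2 that of Ccr6 (0.0011 to 0.11).

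Cxcr6 ran the other way. With levels of 5.71, 6.23 and 6.75 in WT EGFP-positive cells, against 9.35 in the WT EGFP-negative array, it was 8.66-fold lower (difference -3.11, SE 0.35, limma adjusted p = 0.00837). This call was lost under 2 of 14 alternatives, with an adjusted p of 0.0038 to 0.082. Its other probe set read 4.46, 4.44 and 4.32 in WT EGFP-positive arrays, against 8.02 in the WT EGFP-negative array (difference -3.62, limma adjusted p = 0.0044). Cxcr3 averaged 9.89 ± 0.46 (SD, n = 3) in the WT EGFP-positive arrays and stood at 9.01 in the WT EGFP-negative array, a difference of 0.88 that did not pass (limma adjusted p = 0.443). Cx3cr1 differed by 0.15 (limma adjusted p = 0.892).

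In the comparison of delta EGFP-positive with delta EGFP-negative cells, limma called 0 of the 8 receptors, while 2 had an unadjusted p under 0.05. This contrast called 0.0879% of all genes, and 1994 of 18193 genes had an unadjusted p under 0.05. Ccr8 stood at 8.02, 8.41 and 7.7 in the delta EGFP-positive arrays, against 5.97 in the delta EGFP-negative array. All 3 positive arrays lay above it, with a difference of 2.07 (4.2-fold, 95% interval 1.2 to 2.94, limma adjusted p = 0.142), and without WT replicate 2 and delta replicate 3 the difference was 2.24 (adjusted p = 0.019, within 0.019 to 0.54 over the alternatives).

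Cxcr6 averaged 11.37 ± 0.2 (SD, n = 3) in the delta EGFP-positive arrays and stood at 10.46 in the delta EGFP-negative array (difference 0.9, limma adjusted p = 0.469). Ccr6 averaged 6.9 ± 0.19 (SD, n = 3) in the delta EGFP-positive arrays and stood at 7.07 in the delta EGFP-negative array. Its difference of -0.17 has a 95% interval of -0.91 to 0.57, while the same pair of WT groups differed by 2.66. The other receptors differed by -0.12 to 0.52 between the delta groups.

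Whether the EGFP difference itself depended on the allele was tested as an interaction, the delta difference minus the WT difference. Limma called 0 of 8 receptors by their main probe sets, and 0.066% of all genes (0.04% of all probe sets). An unadjusted p under 0.05 was found for 5 of the 8 receptors and for 1229 of all 18193 genes. The interaction of Cxcr6 was 4.02 (SE 0.5, limma adjusted p = 0.0612) for the main probe set and 4.59 (SE 0.48, limma adjusted p = 0.0453) for the other. That other set ranked at percentiles 16.4 to 20.7 in WT EGFP-positive cells, and its call was lost under 7 of 12 alternatives, with an adjusted p of 0.004 to 0.21. Ccr6 had an interaction of -2.83 (SE 0.45, limma adjusted p = 0.153), and Ccr2, Ccr3 and Ccr4 lay between -1.2 and -1.75. Over the alternatives the adjusted p ran from 0.029 to 0.31 for the main Cxcr6 probe set and from 0.023 to 0.44 for Ccr6.

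The EGFP-negative arrays, with 1 array per allele, can be compared by value only. All 8 receptors read higher in the delta EGFP-negative array than in the WT EGFP-negative array, where 50.3% of all genes did. The differences were 1.73 for Ccr8, 1.65 for Ccr2, 1.52 for Cxcr3 and 1.12 for Cxcr6, so that 4 of 8 were at least 2-fold higher, against 3.78% of all genes. Ccr4 differed by 0.83, Ccr6 by 0.62, and Ccr3 and Cx3cr1 by 0.14 each. A further Ccr2 probe set went the other way, at 6.43 in the delta EGFP-negative array and 6.8 in the WT EGFP-negative array.

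Across the groups, the receptors followed unlike orders. Cxcr6 was highest in delta EGFP-positive cells (11.37), then in delta EGFP-negative (10.46), WT EGFP-negative (9.35) and WT EGFP-positive cells (6.23). Of the neighbours in that order, the WT pair differed by limma, the delta pair did not pass, and the negative pair could not be tested. Ccr6 and Ccr3 stood apart in WT EGFP-positive cells alone, while their other groups lay between 6.46 and 7.07 for Ccr6 and between 4.17 and 4.31 for Ccr3. Ccr2 and Ccr4 did not pass between the EGFP-positive groups and were lowest in the WT EGFP-negative array. Ccr8 was highest in delta EGFP-positive cells (8.04), then in WT EGFP-positive (6.73), delta EGFP-negative (5.97) and WT EGFP-negative cells (4.24). The single delta EGFP-negative array for Cxcr3 (10.53) lay just under the lowest delta EGFP-positive array and above all WT arrays.

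The genes of the nearest pattern were ranked by Pearson correlation over the 8 arrays among 1707 or 1708 variable, above-median genes, a description of arrays that share groups and normalization. For Cxcr6 they were Prkar2a (0.9797), Mpp6 (0.9796) and Gpr171 (0.9793). Ccr6 was nearest to Irak2 (0.9839), Marchf3 (0.9712) and Nod1 (0.9705). Nod1 also led for Ccr3 (0.9725), ahead of Igf1r (0.9721) and Flicr (0.9641), a noncoding RNA transcribed beside Foxp3. For Ccr8 the nearest were Zbtb32 (0.969), Samsn1 (0.9621) and Gfi1 (0.96), and for Cxcr3 they were Gprin3 (0.9912), D430019H16Rik and D630039A03Rik (0.9752 each). Ccr4 was nearest to Izumo1r (0.9651), Fah (0.9645) and Klrg1 (0.9608), and Ccr2 to S100a6 (0.9705), Prnp (0.9669) and Il2rb (0.9635). Cx3cr1, which varied little, had no gene closer than Dtl (0.9066), followed by Hmgn5 (0.8983) and Ptgr1 (0.8947).

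Chemokine ligands were read on the same arrays. Of 16 ligands of these receptors, 4 were higher and 0 lower in the delta EGFP-positive arrays than in the WT EGFP-positive arrays. Of all genes, 10.4% passed as higher and 6.02% as lower. The median difference of the ligands was 0.11. Ccl1, the ligand of Ccr8, stood at 8.55, 8.6 and 8.19 in the delta arrays and at 5.25, 5.87 and 5.95 in the WT arrays (difference 2.76, limma adjusted p = 0.000271). The Cxcr3 ligand Cxcl10 stood at 9.7, 9.67 and 9.23 in the delta arrays and at 7.03, 6.01 and 7.57 in the WT arrays (difference 2.67, limma adjusted p = 0.0031). For both ligands every delta array was above every WT array.

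Cxcl11, also a Cxcr3 ligand, differed by 1.07 at low levels (limma adjusted p = 0.0093). Ccl5, which binds Ccr3 among other receptors, differed by 4.06 (16.7-fold, limma adjusted p = 3.39e-05). The ligand of Cxcr6, Cxcl16, differed by -0.19 (limma adjusted p = 0.636), and that of Ccr6, Ccl20, by -0.35 (0.0945). The same 4 ligands were at least 2-fold higher in the delta EGFP-negative array than in the WT EGFP-negative array, with differences of 2.43 to 3.12. Of all genes, 3.78% were at least 2-fold higher there. In each EGFP comparison limma called 0 of the 16, with 2 at an unadjusted p under 0.05. Of all 18193 genes, 1984 had such a p in the WT EGFP comparison and 1994 in the delta EGFP comparison.

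**Figure D3:**
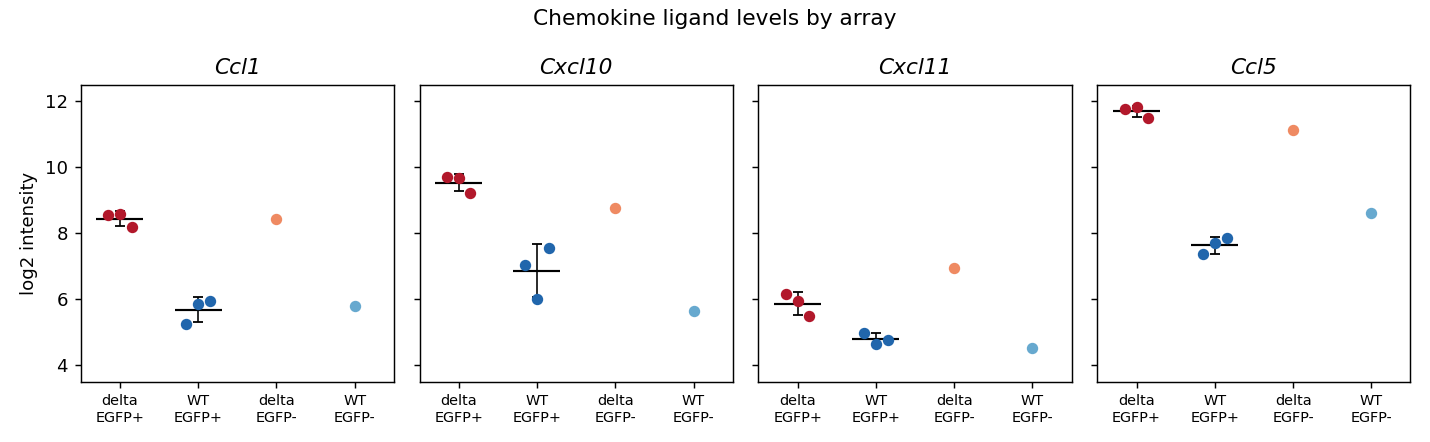
Log2 intensity of the 4 ligands that passed in the EGFP-positive comparison, by group, with points for arrays and mean and SD for the EGFP-positive groups (n = 3). The delta EGFP-negative array lies near or above the delta EGFP-positive arrays for Ccl1 and Cxcl11.

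Of 13 other measured chemokine receptors, 2 were higher and 1 was lower in the delta EGFP-positive arrays, against 10.4% and 6.02% of all genes. Ccr1, an inflammatory receptor of several CC chemokines, stood at 6.15, 6.27 and 5.32 in the delta arrays and at 4.6, 4.4 and 4.77 in the WT arrays (difference 1.32, limma adjusted p = 0.0121). The Ccr1 call was lost without delta replicate 1 (adjusted p = 0.057, within 0.00052 to 0.057 over the alternatives). The gut-homing receptor Ccr9 differed by 0.78 (limma adjusted p = 0.00408), but by 0.39 with the mean of all its probe sets, which did not pass (adjusted p = 0.056, within 0.0027 to 0.056 over the alternatives). The lymph node homing receptor Ccr7 stood at 10.83, 10.32 and 10.9 in the delta arrays and at 12.82, 11.24 and 12.75 in the WT arrays (difference -1.59, limma adjusted p = 0.0415). WT replicate 2 stood low among the WT arrays there, and the Ccr7 call was lost under 7 of 14 alternatives, with an adjusted p of 0.00032 to 0.14.

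Of the 8 receptors, 6 have genes on chromosome 9, Ccr6 lies on chromosome 17 and Cxcr3 on the X chromosome. In the RefSeq order of the GRCm38.p6 assembly, the measured chemokine receptor genes of a segment of chromosome 9 run Ccr9, Cxcr6, Xcr1, Ccr1, Ccr3 and Ccr2. Between the EGFP-positive groups these differed by 0.78, 5.13, -0.07, 1.32, -1.48 and -0.1 in that order, so neighbours differed in size and in sign. Cxcr6 lies within the span of Fyco1, whose main probe set differed by -0.29 (limma adjusted p = 0.12).

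**Figure D4:**
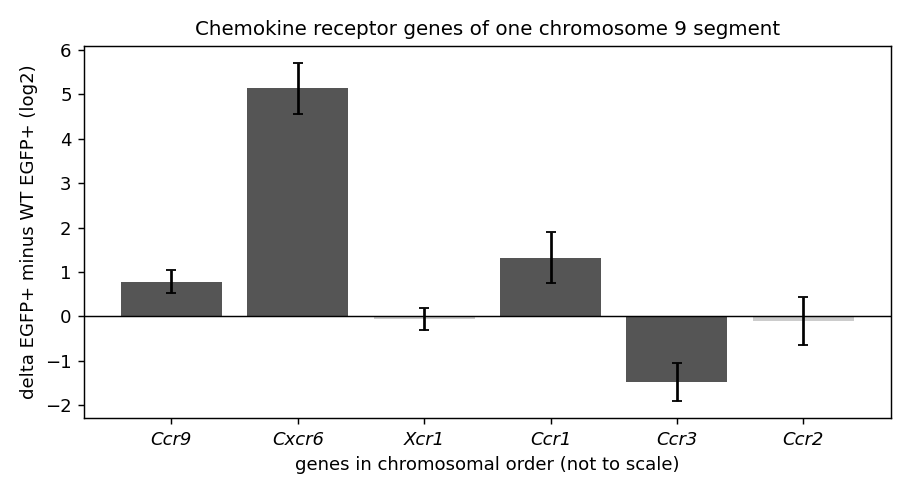
Difference of delta EGFP-positive minus WT EGFP-positive arrays (log2, with 95% intervals) for chemokine receptor genes in their order along chromosome 9, not to scale. Dark bars passed an adjusted p of 0.05. Cxcr6 stands at 5.13 and Ccr3 at -1.48.

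Genes that carry or dampen the receptor signal were read from 2 further lists. Of 19 signalling genes, 2 were higher and 2 lower in the delta EGFP-positive arrays. Of all genes, 10.4% passed as higher and 6.02% as lower. The G protein subunit Gng2 differed by 1.8 (limma adjusted p = 0.000205) and the lipid kinase Pik3cg by 0.78 (0.00456), against -0.96 for the kinase adaptor Pik3r5 (0.00119) and -0.77 for Dock2, which activates Rac in migrating lymphocytes (0.0153). Of 13 genes that desensitise such receptors, 0 were higher and 4 lower: the arrestin Arrb1 differed by -1.4 (limma adjusted p = 0.00157), and the G protein regulators Rgs14 by -1.22 (0.00191), Rgs10 by -1.01 (0.00101) and Rgs3 by -0.6 (0.0216). The Dock2 call was lost under 3 of 14 alternatives (adjusted p 0.0066 to 0.1) and the Rgs3 call under 4 of 14 (0.0023 to 0.074).

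Among 14 transcription factors linked to these receptors, 6 were higher and 2 lower in the delta EGFP-positive arrays, against 10.4% and 6.02% of all genes. Besides Foxp3, Tbx21, the Th1 regulator that is known to drive Cxcr3, stood at 9.66, 9.06 and 9.69 in the delta arrays and at 6.02, 6.5 and 5.52 in the WT arrays (difference 3.46, limma adjusted p = 0.000309). Prdm1, which marks effector cells, differed by 1.5 (limma adjusted p = 0.00866), and Klf2, which maintains lymph node homing, by -1.38 (limma adjusted p = 8e-04).

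Markers of other cells were read beside the receptors, and their part in the differences was not tested. Between the EGFP-positive groups, 10.4% of all genes passed as higher and 6.02% as lower, and 5266 of 18193 had an unadjusted p under 0.05. Of 8 NK cell genes, 3 were higher in the delta EGFP-positive arrays, Klrd1 (3.1), Klrk1 (1.77) and Klrc1 (1.94), and 4 had an unadjusted p under 0.05. The fourth was Tyrobp, whose difference was -0.82 (limma adjusted p = 0.155), while Fcer1g differed by -0.52 and Ncr1, Klra8 and Klra1 by 0.05 to 0.16. The summed intensity of the list was 458 to 553 in the delta arrays and 247 to 400 in the WT arrays. The CD8 coreceptor genes gave 0 calls of 2 in limma, with 1 at an unadjusted p under 0.05. Cd8a stood at 8.5, 8.84 and 5.95 in the delta EGFP-positive arrays, against 6.36, 5.22 and 6.29 in WT EGFP-positive arrays. In the same delta arrays Cxcr6 stood at 11.45, 11.51 and 11.13, and its other probe set at 9.98, 10.2 and 9.21. Both Cxcr6 sets and Cd8a were lowest in delta replicate 3.

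The 10 monocyte and macrophage genes gave 0 calls between the EGFP-positive groups in limma. An unadjusted p under 0.05 was found for 3 of the 10 and for 5266 of all 18193 genes. Their intensity summed to 824 to 1006 in the delta arrays and 815 to 1981 in the WT arrays. Their WT high point was replicate 3, where Csf1r stood at 9.85, against 8.36 and 6.81 in the other WT arrays. B cell genes gave 0 calls of 7 (1 at an unadjusted p under 0.05), dendritic cell genes 0 of 6 (2), and NKT and gamma delta T cell genes 0 of 4 (0). Of 8 T cell genes, Cd247 (-0.66) and Cd5 (-0.45) were lower in the delta arrays. The Cd247 call held under all 14 alternatives, and the Cd5 call was lost under 6 of 14, with an adjusted p of 0.0043 to 0.092.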

How the data were processed

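Gene expression was measured with 8 Affymetrix arrays, 1 per sample. Each deposited value is a linear intensity per probe set, which the authors made with RMA, per the submitters' processing notes. This method corrects background, normalizes by quantiles and summarises probes, and it can compress differences at low intensity. Its version is not stated. Of 45101 probe sets, 64 controls were left out. Symbols came from the platform annotation, updated through gene records (34741 matched). A total of 932 probe sets with several symbols and 9160 with none here were not named. A mean per group was fitted to log2 values of all 8 arrays with limma 3.58.1 in R 4.3.3 (4 residual and 3.72 prior degrees of freedom), without a filter or pseudocount, and p-values were adjusted by Benjamini-Hochberg across probe sets. An exact permutation test of 3 against 3 cannot go below 0.1. The receptors, the 13 gene lists (142 symbols) and the alternatives were chosen with earlier results of these data known. From each list up to 4 genes past the threshold were named by size, or up to 2 with the smallest p where none passed, and chromosome neighbours, Cd3e, Cd4, Cxcl16 and Ccl20 were named after values were seen. The fit was first tested on simulated data with known changes in 200 of 45037 probe sets. That is a far smaller share than passed between the EGFP-positive groups, so recovery in the real data may differ. Of 2-fold changes it recovered 63.2% between the EGFP-positive groups, 42.6% in the WT EGFP comparison, 23.5% in the delta EGFP comparison and 0% for the interaction. Of 4-fold changes it recovered 85.9%, 65.6%, 67.2% and 35.9% in the same order. The WT and delta EGFP comparisons share a design of 3 arrays against 1, so 42.6% against 23.5% does not reflect a difference in design. Same-numbered EGFP-positive arrays had correlations of their deviations from group means of 0.121, 0.046 and -0.102 over all probe sets. The main fit did not take the numbers as pairs, but this check cannot exclude run effects on particular genes. Fewer receptors passed with the runs as a block, as given below.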

Additional observations from a re-analysis of the deposited data

Results flagged for a closer look

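Cxcr6 is listed because the interaction of 1 of its probe sets, the difference between the EGFP groups in delta minus that in WT, passed the threshold. That set gave 4.59 (limma adjusted p = 0.0453), with a difference of 0.97 between the delta EGFP groups and -3.62 between the WT EGFP groups. It ranked at percentiles 16.4 to 20.7 in the WT EGFP-positive arrays, so the size rests on values low on the scale. Recomputed under 12 alternatives, a check chosen after seeing the data, the call was lost under 7, with interactions of 3.39 to 4.9 and an adjusted p of 0.004 to 0.21. The main probe set gave 4.02 and did not pass (limma adjusted p = 0.0612). Whether the EGFP difference of Cxcr6 depends on the allele is thus not established here. The difference between the EGFP-positive groups of the alleles is a separate result, and both probe sets passed there. All 3 delta EGFP-positive arrays lay above the delta EGFP-negative array, and all 3 WT EGFP-positive arrays lay below the WT EGFP-negative array, for both probe sets. Each EGFP-negative group is a single array. The Foxp3 probe set also gave an interaction, of 4.9 (limma adjusted p = 0.0044), with WT EGFP-positive readings that go against their label. With the runs of array numbers as a block its adjusted p was 0.11, within 0.0018 to 0.11 over the alternatives.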

How the results depend on the processing

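Of 432 recomputed receptor differences, 381 kept their direction and side of the threshold, 40 no longer passed, 7 newly passed and 4 changed sign. The causes were not tested. Many of the 432 were of differences that had not passed at first and so could not be lost. All 40 losses fell on the 5 calls between the EGFP-positive groups and the 6 calls of the WT EGFP comparison. Cxcr6, Ccr6 and Ccr3 passed between the EGFP-positive groups under every alternative that measured them. The count of receptors passing there was 5, and 3 to 5 when 1 array was left out. For WT EGFP-positive against WT EGFP-negative it was 6, with 2 to 6 when 1 array was left out, 2 with log2(value + 32) and 0 with only the groups of the comparison. For delta EGFP-positive against delta EGFP-negative it was 0, with 1 (Ccr8) without WT replicate 2 and delta replicate 3. For the interaction it was 0, with 1 under a trended robust variance, 1 with the mean of all probe sets of a gene, 0 to 2 when 1 array was left out, and 2 (Cxcr6 and Ccr6) without the 2 arrays just named. Receptors passing in any contrast numbered 7, with 4 under log2(value + 32) and 4 to 7 when 1 array was left out. The share of all genes passing in any contrast was not computed, so this joint count has no background beside it. With the runs of array numbers as a replicate block, which the labels do not establish as pairs, the counts were 3 between the EGFP-positive groups, where Ccr8 (adjusted p = 0.06) and Cxcr3 (0.063) did not pass, 0 for the WT EGFP comparison and 3 in any contrast. Signs changed for Ccr2 between the EGFP-positive groups, which ran from -0.27 to 0.1 when 1 array was left out (0.1 without delta replicate 3, 0.09 without WT replicate 2) and was 0.29 without both of these, and for the Ccr8 interaction, to 0.2 with log2(value + 32). None of these Ccr2 and Ccr8 values passed. A filter on dim probe sets left Ccr3 and Cx3cr1 unmeasured.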

Other observations

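Between WT EGFP-positive and WT EGFP-negative cells, limma called 1.5% of all genes. Among the genes listed beside the receptors, it called Rgs1, Maf, Klrd1, Pik3r5 and Cybb. These were 1 of 13 desensitising genes, 1 of 14 transcription factors, 1 of 8 NK cell genes, 1 of 19 signalling genes and 1 of 10 monocyte and macrophage genes. Rgs1, which dampens chemokine receptor signals, read 12.32, 11.71 and 12.24 in WT EGFP-positive arrays, against 8.52 in the WT EGFP-negative array (difference 3.57, 11.9-fold, limma adjusted p = 0.00437), a call lost under 1 of 14 alternatives (0.00013 to 0.055). It stood at 12.45, 12.47 and 11.78 in the delta EGFP-positive arrays and at 10.84 in the delta EGFP-negative array, so that the WT EGFP-negative array was the lowest of all. Maf, a transcription factor of effector and regulatory T cells, was 3.6-fold higher in the WT EGFP-positive arrays (difference 1.85, limma adjusted p = 0.0257), a call lost under 6 of 14 alternatives (0.0041 to 0.14). Klrd1, an NK receptor gene, differed by -3.17 (limma adjusted p = 0.00929) and stood low in the WT EGFP-positive arrays, as Cxcr6 did. The Klrd1 call was lost under 2 of 14 alternatives (adjusted p 0.003 to 0.077). Pik3r5 differed by -0.96 (limma adjusted p = 0.0287), a call lost under 7 of 14 alternatives (0.014 to 0.18). Of the 14 linked transcription factors, 7 were at least 2-fold higher in the delta EGFP-negative array than in the WT EGFP-negative array. None was at least 2-fold lower, and 3.78% of all genes were at least 2-fold higher.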
